A study of Mus musculus with 10 samples.

Results

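Lysosomal enzymes, lysosomal membrane proteins and subunits of the proton pump were followed as a group of 43 named genes in cultured B cells of Irf4-/- and Irf4+/+ mice. Irf4 encodes a transcription factor of lymphocytes. All probe sets that the platform annotation gives to a listed symbol were taken, with the brightest of a gene as its value. Of the 43 genes, 42 had a probe set with 1 gene symbol, among 18193 genes on the array, and all 42 passed the filter on dim signals. Cd63 had no such probe set and is not analysed here. The cells came from spleens of Irf4-/- mice and of their Irf4+/+ littermates, all 12 weeks of age and of the C57BL/6 strain. Non-B cells were depleted magnetically, and the mature B cells that remained spent 3 days in culture with IL-4 at 20 ng/ml and a CD40 antibody. Each genotype has 5 arrays, and the labels do not say whether these are separate mice or cultures. Spread between replicates, on which all p-values rest, may therefore be technical. The labels give no cell type restriction for the Irf4 disruption, and no unstimulated cells are analysed here.

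The lysosome is the acidic compartment in which cells take apart proteins, sugars and lipids. A proton pump, the V-ATPase, acidifies it, with a membrane sector (V0) that carries protons and a cytosolic sector (V1) that splits ATP. In B cells the same compartment cuts the invariant chain and captured antigen, so that peptides can load onto MHC class II molecules. Many lysosomal genes are targets of TFEB, a transcription factor held in the cytosol when nutrients keep the kinase mTOR active at the lysosome.

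Values are MAS5 signal units on a linear scale. Fold changes are Irf4-/- over Irf4+/+ on the log2(signal + 7.9) scale, with 7.9 as the 20th percentile of the deposited signals. Calls were made at an adjusted p under 0.05 in a limma fit over the 12095 genes with a mean signal of at least 26.1, the 40th percentile, and every adjusted p for a gene is from that fit unless it is said to be over all probe sets. Arrays of the same genotype correlated at Pearson's r of 0.977 to 0.985, and arrays of different genotypes at 0.937 to 0.944. Irf4 itself read 2638 to 2989 units in Irf4-/- and 3426 to 3978 units in Irf4+/+ arrays on its brighter probe set, and the Irf4-/- mean was 74.2% of the Irf4+/+ mean. That probe set does not check the genotype, because its position against the disrupted stretch was not stated. The ratio of 3′ to 5′ signal of the Actb control was 1.10 ± 0.0227 in Irf4-/- and 1.15 ± 0.0259 in Irf4+/+ arrays (SD, n = 5 each), and that of Gapdh was 0.859 ± 0.0404 in Irf4-/- and 0.856 ± 0.0269 in Irf4+/+ arrays. The brightest 18S ribosomal RNA control gave 207.1 ± 66.1 in Irf4-/- and 69.0 ± 20.2 in Irf4+/+ arrays (SD, n = 5 each). The part of these array measures in the results was not tested.

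Markers of some other cell types differed between the genotypes. Of all genes tested, 47.8% were called, 23.6% higher and 24.2% lower, and the counts below stand beside those shares. The 9 natural killer cell markers measured were called higher. Of these, 5 had Irf4+/+ means under 26.1 and passed the filter through their Irf4-/- signal, so that their means had to differ. The summed signal of the 9 was 11513 to 15951 in Irf4-/- and 1300.5 to 1559 in Irf4+/+ arrays. Most of that sum was Gzma (mean 8256 in Irf4-/- and 818.6 in Irf4+/+ arrays) and Gzmb (mean 4868 in Irf4-/- and 362 in Irf4+/+ arrays). Prf1, the next brightest in Irf4-/-, averaged 297.3 in Irf4-/- and 55.1 in Irf4+/+ arrays. Of 15 macrophage markers measured, 10 had a mean under 26.1 in both genotypes, among them C1qa, C1qb, C1qc, Marco, Vsig4, Cd163, Cd14 and Mertk. Adgre1 and Lyz2 were the 2 macrophage markers called, both higher, and the summed signal of the 15 was 1029 to 1261 in Irf4-/- and 395.7 to 499.9 in Irf4+/+ arrays. Of 8 granulocyte markers measured, 5 were tested: S100a8, S100a9 and Ngp were called higher, of which S100a8 and S100a9 passed the filter only through Irf4-/-, and Mpo and Elane were not called. The summed granulocyte signal was 670 to 1116 in Irf4-/- and 134.6 to 213.7 in Irf4+/+ arrays. Dendritic cell markers gave 925.3 to 974.3 in Irf4-/- and 1199.7 to 1363 in Irf4+/+ arrays. Of 5 tested, 2 were called higher (Itgax and Zbtb46) and 2 lower (Flt3 and Batf3). The lower sum came mostly from Flt3, with a mean of 53.2 in Irf4-/- and 417.3 in Irf4+/+ arrays. Sums of T cell markers overlapped (200.8 to 273.6 in Irf4-/- and 231.2 to 298.3 in Irf4+/+ arrays, with 1 of 3 tested called, lower), as did those of erythroid and platelet markers (155.8 to 316.5 in Irf4-/- and 197.3 to 312.3 in Irf4+/+ arrays, with 0 of 3 called). Stromal markers, 8 measured and 5 of them dim in both genotypes, summed to 235.9 to 283.4 in Irf4-/- and 147.7 to 196.4 in Irf4+/+ arrays. Of the 2 tested, Pecam1 was called higher, having passed the filter only through Irf4-/-. The 8 B cell markers measured were all called higher too, with sums of 44886 to 49167 in Irf4-/- and 24414 to 27157 in Irf4+/+ arrays. Macrophages and granulocytes hold many lysosomal enzymes, and the part of these cells in the results below was not tested. In bulk samples such as these, fewer cells of a type and less RNA per cell cannot be told apart.

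Most of the 42 genes differed between the genotypes, and more of them were higher than lower in Irf4-/- cells. Of the 42, 24 were called higher (57.1%), 8 were called lower (19.0%) and 10 were not called. Among all genes tested, 47.8% were called, 23.6% higher and 24.2% lower. The median log2 fold change was 0.23 over the 42 genes and 0.0037 over all genes. At least 2-fold changes were seen for 4 higher genes (Lgmn, Tfeb, Ifi30 and Ctsa) and 1 lower gene (Gusb), where all genes gave 5.44% higher and 2.63% lower. The arrays of the genotypes did not overlap for 27 of the 42 genes (64.3%), against 36.1% of all genes. The 42 genes also varied less between arrays of a genotype than genes in general. Their median SD on the log2 scale was 0.0936 in Irf4-/- and 0.114 in Irf4+/+ arrays, against 0.155 and 0.166 over all genes. The genes were not matched for signal level. With the arrays centred on their medians, 19 were called higher and 9 lower, and without probe sets shared between transcripts, which left 32 of the 42 genes with a value, 17 were called higher and 6 lower.

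**Figure D1:**
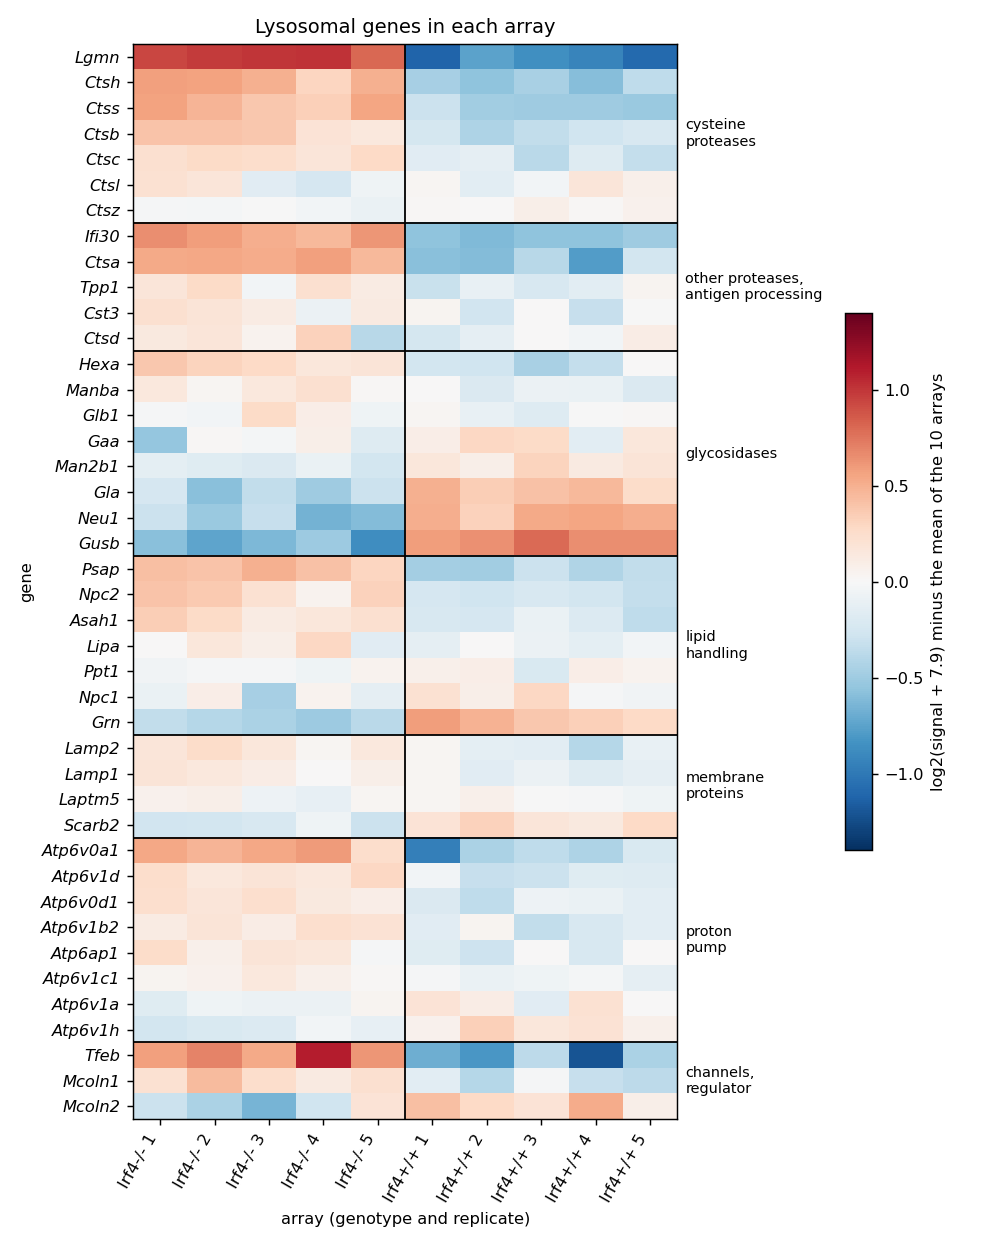
Each row is a gene, grouped by role, and each column an array, Irf4-/- on the left and Irf4+/+ on the right; colour gives log2(signal + 7.9) minus the gene's mean over the 10 arrays. The protease rows are mostly red on the left, while the lower glycosidase rows, Grn and Scarb2 are blue there.

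Of the regulator and the channels, 2 of 3 genes rose and 1 fell, with a median log2 fold change of 0.50. Of all genes, 47.8% were called. Tfeb, the transcription factor that drives lysosomal genes, read 435, 470.3, 421, 629 and 446 signal units in the Irf4-/- arrays, against 177, 160.1, 221, 120.4 and 211 in the Irf4+/+ arrays. Every Irf4-/- array lay above every Irf4+/+ array, and the highest Irf4-/- reading stood apart from the other 4. Tfeb was 2.65-fold higher (log2 fold change 1.41, SE 0.146, adjusted p = 5.99e-07), on its 1 probe set. Its relatives in the MiT family did not pass the test: Tfe3 averaged 338 ± 37.2 in Irf4-/- and 297 ± 49.9 in Irf4+/+ arrays (SD, n = 5 each; adjusted p = 0.198), and Mitf 61.8 ± 14.2 in Irf4-/- and 70.5 ± 25.3 in Irf4+/+ arrays (SD, n = 5 each; adjusted p = 0.663).

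Mcoln1, the calcium and cation channel of the lysosomal membrane, read 284.5, 334, 291, 267 and 285 in Irf4-/-, against 219, 183, 241, 194 and 188 in Irf4+/+ arrays. The 5 Irf4-/- readings were all above the Irf4+/+ ones, a 1.41-fold rise (log2 fold change 0.50, SE 0.0943, adjusted p = 0.000328). Its second brightest probe set, close to it in signal, was not called (0.19 on the log2 scale, adjusted p = 0.12 over all probe sets). Without shared probe sets the value of Mcoln1 came from a dimmer probe set and missed the threshold (0.69 on the log2 scale, adjusted p = 0.145). Mcoln2, a related channel found in lymphocytes, went the other way at a low signal, with 44.3, 39.4, 33.2, 45.2 and 65.6 in Irf4-/-, against 78.7, 70.4, 65.8, 84.4 and 60.5 in Irf4+/+ arrays. Its groups overlapped, and its log2 fold change was -0.60 (SE 0.185, adjusted p = 0.0132).

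Because TFEB binds a motif built around GTCACGTG, the promoters of the genes were searched for it. RefSeq promoters of build GRCm38.p6, from 250 bases before to 50 bases after a start site, were at hand for 35 of the 42 genes, as 40 windows. The letters GTCACGTG, read on both strands, were in 9 of these 40 windows (22.5%) and in 738 of 32851 windows of all genes (2.25%). The 9 windows belong to 9 genes: Lgmn, Ifi30, Ctsa, Mcoln1, Atp6v0d1 and Lamp1 were called higher, Gla was called lower, and Ctsd and Glb1 were not called. Of the 26 genes without the letters in a window, 13 were called higher, 6 lower and 7 were not called. The shorter palindrome CACGTG, which is contained in the longer motif, was in 32.5% of the member windows and in 7.15% of all windows. The composite of an ETS and an IRF site, GGAA and GAAA with any 2 bases between them, was in 1 member window (Scarb2), or 2.5%, against 2.72% of all windows. The core of the interferon response element, GAAA repeated after any 2 bases, was in 3 member windows (Ctss, Lamp1 and Atp6v1d), or 7.5%, against 3.44% of all windows. Ctsb, Ctsh, Npc1, Asah1, Atp6v1b2, Atp6v1c1 and Atp6v1h were not matched.

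The promoters of the 3 strongest risers with the motif and of the gene that fell with it are printed so that the sites can be seen in place, with GTCACGTG or its reverse complement CACGTGAC in capitals. Lgmn is at chr12:102439043-102439342 on the minus strand, a start site downstream of another Lgmn start whose window lacks the letters. Ifi30 is at chr8:70766614-70766913 on the minus strand, Ctsa at chr2:164833523-164833822 on the plus strand and Gla at chrX:134600956-134601255 on the minus strand.
Lgmn: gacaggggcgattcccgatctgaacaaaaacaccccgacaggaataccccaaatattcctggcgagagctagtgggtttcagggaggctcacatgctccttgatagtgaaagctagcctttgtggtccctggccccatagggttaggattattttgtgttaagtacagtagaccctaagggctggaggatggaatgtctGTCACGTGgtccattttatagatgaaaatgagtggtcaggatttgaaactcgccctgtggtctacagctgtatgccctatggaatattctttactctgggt
Ifi30: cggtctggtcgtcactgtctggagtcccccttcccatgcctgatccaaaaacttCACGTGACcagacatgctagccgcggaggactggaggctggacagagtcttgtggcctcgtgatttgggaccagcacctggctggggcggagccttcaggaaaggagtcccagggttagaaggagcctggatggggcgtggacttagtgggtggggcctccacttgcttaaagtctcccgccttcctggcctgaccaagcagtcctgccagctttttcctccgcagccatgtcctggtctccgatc
Ctsa: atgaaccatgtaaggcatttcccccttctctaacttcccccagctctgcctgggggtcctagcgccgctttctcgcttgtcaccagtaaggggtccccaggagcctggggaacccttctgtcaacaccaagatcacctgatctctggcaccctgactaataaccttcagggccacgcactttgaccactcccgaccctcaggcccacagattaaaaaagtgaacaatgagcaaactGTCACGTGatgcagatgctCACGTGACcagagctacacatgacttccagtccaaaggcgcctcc
Gla: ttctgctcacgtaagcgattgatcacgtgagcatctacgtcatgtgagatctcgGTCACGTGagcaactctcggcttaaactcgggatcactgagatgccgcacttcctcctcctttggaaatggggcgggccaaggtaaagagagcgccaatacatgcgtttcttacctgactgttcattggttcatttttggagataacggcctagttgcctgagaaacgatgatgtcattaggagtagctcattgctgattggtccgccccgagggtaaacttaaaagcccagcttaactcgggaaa
The motif begins 51 bases before the start site in Lgmn and 196 bases before it in both Ifi30 and Gla. Ctsa holds it at 14 bases before the start and again just after it, in opposite orientations.

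For the remaining 5 genes 1 site each is shown with 10 bases on each side, to let the flanks be compared. Mcoln1 and Ctsd each hold a second site that is not shown, beginning 73 bases before the start site in Mcoln1 and 245 bases before it in Ctsd. The sites shown lie at chr8:3500464-3500491 on the plus strand (Mcoln1), chr8:13159123-13159150 on the plus strand (Lamp1), chr8:105566052-105566079 on the minus strand (Atp6v0d1), chr9:114401018-114401045 on the plus strand (Glb1) and chr7:142387908-142387935 on the minus strand (Ctsd).
Mcoln1: gcgccccgctCACGTGACcgcggcgcat
Lamp1: tgccgactggCACGTGACcacatcacgt
Atp6v0d1: ccctactgcgGTCACGTGagacgcggtg
Glb1: ctgcttctgaGTCACGTGgcctacagag
Ctsd: gcccgcgtctCACGTGACccgttgaggg
A match of letters is a description of the window and not a measured binding site.

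**Figure D2:**
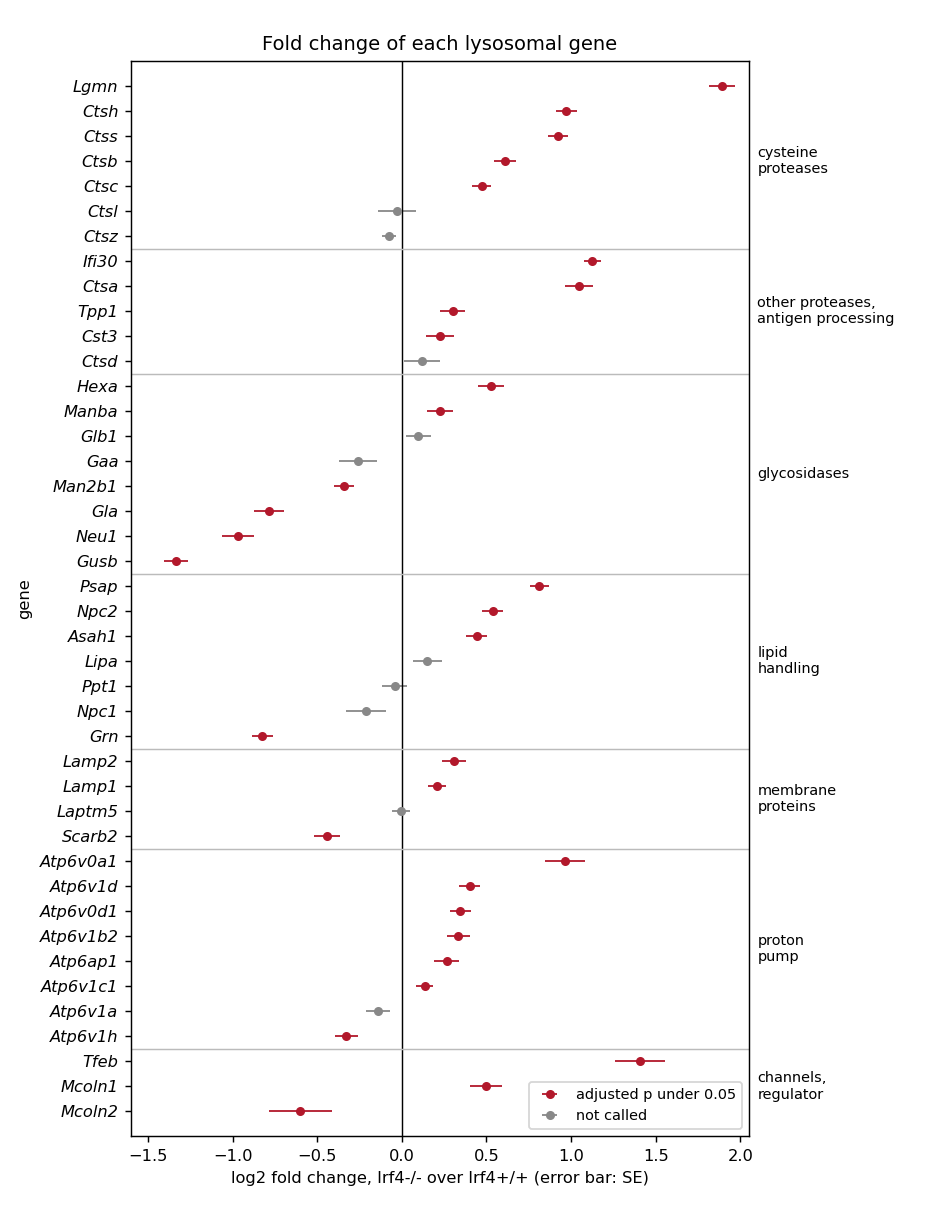
Points give each gene's log2 fold change, Irf4-/- over Irf4+/+, with its SE as the bar, grouped by role from top to bottom; red points were called and grey ones were not. Lgmn at 1.89 and Gusb at -1.33 mark the ends of the range.

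Among the cysteine proteases 5 of 7 rose, none fell and 2 were not called, with a median log2 fold change of 0.61. The share called higher was 71.4%, against 23.6% of all genes. Lgmn, the asparaginyl endopeptidase legumain that starts the cutting of several antigens and activates cathepsins, changed the most. It read 1746, 1802, 1831.5, 1842 and 1599 signal units in the Irf4-/- arrays, against 416, 538, 501, 478 and 424 in the Irf4+/+ arrays. No Irf4-/- array came near the Irf4+/+ range, and Lgmn was 3.71-fold higher (log2 fold change 1.89, SE 0.0748, adjusted p = 6.29e-12).

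Ctss, cathepsin S, which removes the invariant chain from class II molecules in B cells, read 8287, 7763, 7279, 7028 and 8221 signal units in the Irf4-/- arrays, against 4535, 3989, 3944, 3941 and 3898 in the Irf4+/+ arrays. The groups lay far apart, although the highest Irf4+/+ array stood above the other 4 of its group, and the rise was 1.90-fold (log2 fold change 0.92, SE 0.0599, adjusted p = 2.23e-09). Ctsh, an aminopeptidase that trims peptides and processes other proteases, read 4860.3, 4811, 4602, 4013 and 4622 in Irf4-/-, against 2355, 2210.3, 2385, 2150.4 and 2549.8 in Irf4+/+ arrays. Its 1.96-fold rise was close in size to that of Ctss (log2 fold change 0.97, SE 0.0627, adjusted p = 2.07e-09), and the second Ctsh probe set rose too, with a log2 fold change of 0.74.

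Ctsb, cathepsin B, an endopeptidase with carboxypeptidase activity, averaged 2123 ± 180.4 in Irf4-/- and 1386 ± 82.8 in Irf4+/+ arrays (SD, n = 5 each), 1.53-fold higher (log2 fold change 0.61, SE 0.0659, adjusted p = 9.66e-07). Its other 3 tested probe sets had log2 fold changes of 0.35, 0.44 and 1.71, of which 0.44 was not called. Ctsc, the dipeptidyl peptidase that activates granzymes in cytotoxic cells, averaged 3646 ± 106 in Irf4-/- and 2631 ± 201 in Irf4+/+ arrays (SD, n = 5 each), 1.39-fold higher (log2 fold change 0.47, SE 0.0565, adjusted p = 3.10e-06). Gzma and Gzmb, the granzymes of natural killer cells, were called higher in the same Irf4-/- arrays, at 9.94-fold and 13.2-fold (adjusted p at most 5.93e-13), and their part in the Ctsc result was not tested.

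Ctsl and Ctsz, both papain-family cathepsins, did not pass. Ctsl, which takes the place of cathepsin S in thymic epithelium, read 194, 189, 149, 140.2 and 159.6 in Irf4-/-, against 170.1, 149.5, 162, 188 and 175.5 in Irf4+/+ arrays. These readings overlapped throughout (log2 fold change -0.03, SE 0.11, adjusted p = 0.855). Ctsz, a carboxypeptidase, read 7224.5, 7138, 7263, 7119.7 and 6831 in Irf4-/-, against 7382, 7333, 7739, 7400.4 and 7611 in Irf4+/+ arrays. Its arrays did not overlap, with every Irf4-/- reading a little lower, but the difference was small and was not called (log2 fold change -0.07, SE 0.0426, adjusted p = 0.169). On a dimmer probe set Ctsz was called lower, at -0.16 (adjusted p = 0.0289 over all probe sets).

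Of the other proteases and antigen-processing genes 4 of 5 rose, none fell and 1 was not called, with a median of 0.30. Ifi30, the thiol reductase GILT that opens disulfide bonds of antigens and is inducible by interferon, read 13681.5, 13112, 12453, 11903 and 13346 signal units in the Irf4-/- arrays, against 5888, 5661, 5905, 5883 and 6167 in the Irf4+/+ arrays. Even the lowest Irf4-/- array was far above all Irf4+/+ arrays, and the rise was 2.18-fold (log2 fold change 1.13, SE 0.0492, adjusted p = 2.04e-11). Ctsa, the serine carboxypeptidase known as protective protein, read 1781, 1797, 1770.1, 1842.5 and 1690.2 signal units in the Irf4-/- arrays, against 820.3, 809.7, 939, 714 and 1030.2 in the Irf4+/+ arrays. The Irf4-/- arrays were tightly grouped and the Irf4+/+ arrays spread more widely below them, a 2.06-fold rise (log2 fold change 1.05, SE 0.0812, adjusted p = 2.07e-08).

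Tpp1, a tripeptidyl peptidase, read 1693, 1815.5, 1470.3, 1766 and 1631 in Irf4-/-, against 1208.5, 1399.8, 1289.6, 1356 and 1548 in Irf4+/+ arrays. These groups overlapped, with the lowest Irf4-/- array under the highest Irf4+/+ array, and Tpp1 was 1.23-fold higher (log2 fold change 0.30, SE 0.0727, adjusted p = 0.00262). Cst3, cystatin C, an inhibitor of cysteine cathepsins, averaged 1036 ± 81.4 in Irf4-/- and 888 ± 103 in Irf4+/+ arrays (SD, n = 5 each) and was 1.17-fold higher (log2 fold change 0.22, SE 0.0819, adjusted p = 0.0325). That call was lost with the arrays centred on their medians (adjusted p = 0.179), without a mean-variance trend and without any of 6 arrays: Irf4-/- replicate 1, 2, 3 or 5, or Irf4+/+ replicate 2 or 4 (adjusted p 0.0562 to 0.0986 without these). Ctsd, cathepsin D, the main aspartic protease, read 941, 962, 881, 1067.5 and 651 in Irf4-/-, against 718, 779, 859, 832 and 915 in Irf4+/+ arrays. The lowest of all 10 readings was an Irf4-/- array, replicate 5, and Ctsd was not called (log2 fold change 0.12, SE 0.108, adjusted p = 0.398), but without that array it was called higher (0.23, adjusted p = 0.0264).

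**Figure D3:**
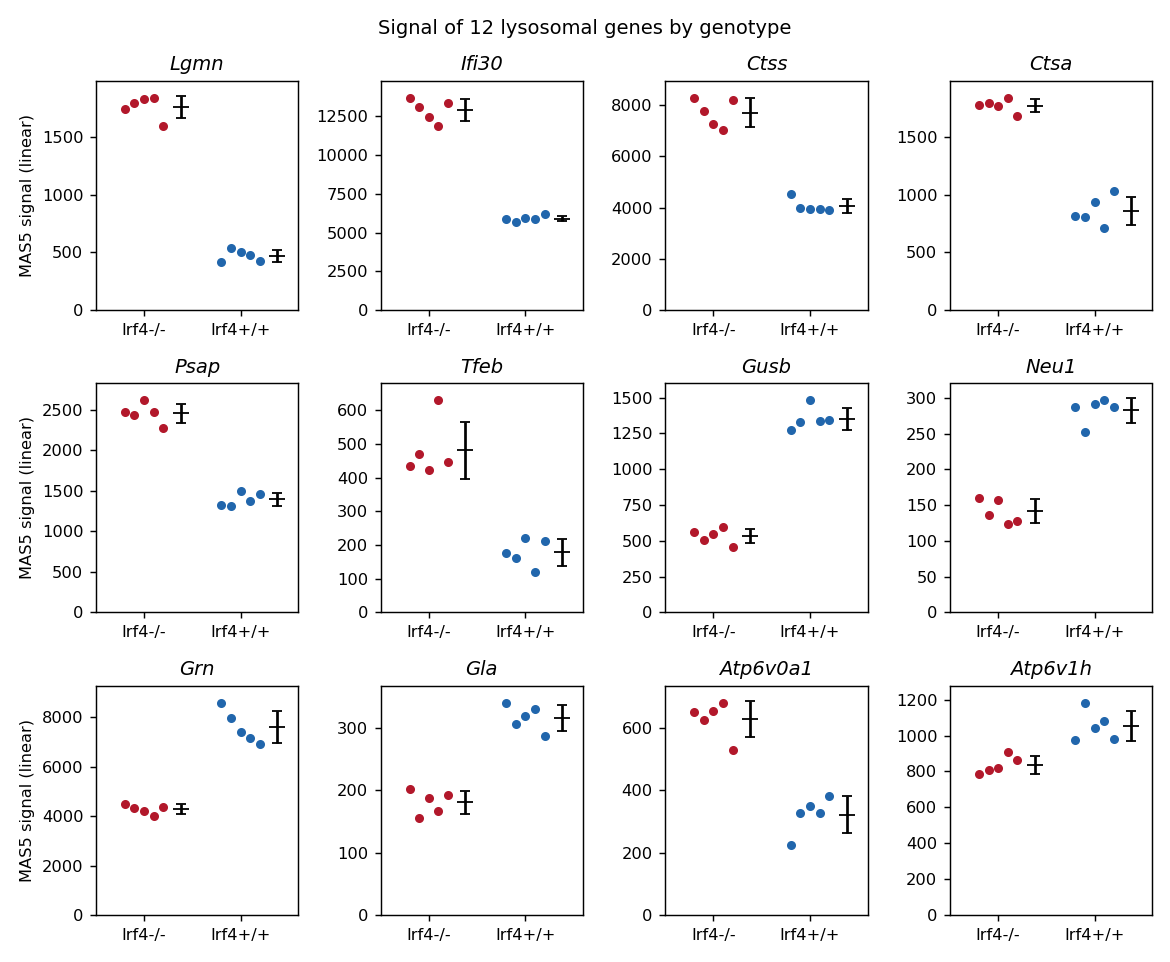
Each panel plots a gene's MAS5 signal on a linear axis from 0, with a point per array, Irf4-/- left and Irf4+/+ right; black marks give the mean and SD of 5 arrays. Lgmn, Ifi30, Ctss, Ctsa, Psap, Tfeb and Atp6v0a1 are higher in Irf4-/-, and Gusb, Neu1, Grn, Gla and Atp6v1h lower, with no overlap in any panel.

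The glycosidases split, with 2 of 8 higher, 4 lower and 2 not called, and a median of -0.30. Gusb, beta-glucuronidase, which trims glycosaminoglycans, read 561, 505.5, 547, 595 and 460.4 signal units in the Irf4-/- arrays, against 1274, 1331.5, 1480.2, 1339 and 1342 in the Irf4+/+ arrays. The Irf4-/- arrays all lay well below the Irf4+/+ arrays, and Gusb fell 2.52-fold (log2 fold change -1.33, SE 0.0718, adjusted p = 2.45e-10). A second Gusb probe set gave -1.31. Neu1, the sialidase that removes terminal sialic acid, read 160.3, 137, 158, 124 and 128 in Irf4-/-, against 288, 252, 291, 296.5 and 287 in Irf4+/+ arrays. Both groups were narrow and far apart, a 1.96-fold fall (log2 fold change -0.97, SE 0.0958, adjusted p = 3.55e-07), although the mean of its probe sets, which includes dimmer ones, was not called (-0.44, adjusted p = 0.0582).

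In the lysosome Neu1, Ctsa and Glb1 form a complex in which Ctsa keeps Neu1 active. Their transcripts did not move together: Ctsa rose 2.06-fold, Neu1 fell 1.96-fold, and Glb1, the beta-galactosidase, was not called. Glb1 averaged 600.3 ± 58.3 in Irf4-/- and 559 ± 34.6 in Irf4+/+ arrays (SD, n = 5 each; log2 fold change 0.10, SE 0.0746, adjusted p = 0.309).

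Gla, alpha-galactosidase A, the enzyme deficient in Fabry disease, read 201, 156, 187, 167 and 193 in Irf4-/-, against 339.7, 306, 319, 329.5 and 286 in Irf4+/+ arrays. It fell 1.72-fold with no overlap (log2 fold change -0.78, SE 0.0897, adjusted p = 1.86e-06), and the mean over its 3 probe sets, of which 2 were dim, was not called (-0.13, adjusted p = 0.679). Man2b1, an alpha-mannosidase, averaged 1153.5 ± 51.3 in Irf4-/- and 1466 ± 88.9 in Irf4+/+ arrays (SD, n = 5 each) and was called lower on its brighter probe set (log2 fold change -0.34, SE 0.0574, adjusted p = 0.000107). Its dimmer probe set gave the opposite, 155.3 ± 11.7 in Irf4-/- and 100.9 ± 27.1 in Irf4+/+ arrays (SD, n = 5 each; log2 fold change 0.62, adjusted p = 0.00387 over all probe sets). The direction of Man2b1 is therefore uncertain.

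Hexa, the alpha subunit of beta-hexosaminidase, which degrades the ganglioside that builds up in Tay-Sachs disease, read 1578, 1506, 1466.5, 1354 and 1369 in Irf4-/-, against 1008, 994, 878, 961 and 1214 in Irf4+/+ arrays. It rose 1.44-fold with all Irf4-/- arrays above the Irf4+/+ arrays (log2 fold change 0.53, SE 0.0774, adjusted p = 2.81e-05). Manba, beta-mannosidase, averaged 341 ± 20.8 in Irf4-/- and 290.4 ± 18.4 in Irf4+/+ arrays (SD, n = 5 each) and rose 1.17-fold (log2 fold change 0.23, SE 0.0752, adjusted p = 0.0205), and lost the call without Irf4-/- replicate 4 (adjusted p = 0.0537) and with arrays centred on their medians (adjusted p = 0.155). Gaa, the alpha-glucosidase of lysosomal glycogen, averaged 409 ± 65.5 in Irf4-/- and 489.6 ± 58.1 in Irf4+/+ arrays (SD, n = 5 each) and was not called (log2 fold change -0.26, SE 0.113, adjusted p = 0.068). It was called lower without Irf4-/- replicate 4 or Irf4+/+ replicate 4 (adjusted p = 0.0358 and 0.0238) and under both other scalings (adjusted p = 0.0425 and 0.0318).

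In the lipid-handling group 3 of 7 rose, 1 fell and 3 were not called, with a median of 0.15. The share called, 57.1%, was near the 47.8% of all genes. Psap, prosaposin, the precursor of the saposins that present sphingolipids to their hydrolases, read 2473, 2431, 2612, 2465.5 and 2274 signal units in the Irf4-/- arrays, against 1328, 1317, 1497, 1374.5 and 1455 in the Irf4+/+ arrays. The groups were separate and each was narrow, and Psap rose 1.75-fold (log2 fold change 0.81, SE 0.0559, adjusted p = 4.90e-09). Grn, progranulin, a secreted and lysosomal glycoprotein that travels to the lysosome with prosaposin, went the opposite way, with 4505, 4326, 4203, 4018 and 4385 signal units in the Irf4-/- arrays, against 8586, 7968, 7401.5, 7185 and 6925 in the Irf4+/+ arrays. Every Irf4-/- array was below every Irf4+/+ array, a 1.77-fold fall (log2 fold change -0.82, SE 0.0599, adjusted p = 9.42e-09), and both further Grn probe sets were lower as well, at -0.97 and -1.08.

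Npc2, the soluble cholesterol-binding protein of the lysosome lumen, averaged 7821 ± 745 in Irf4-/- and 5369 ± 163 in Irf4+/+ arrays (SD, n = 5 each) and rose 1.45-fold (log2 fold change 0.54, SE 0.0621, adjusted p = 2.11e-06). Npc1, the membrane protein that takes cholesterol over from Npc2, was not called, with 165 ± 24.9 in Irf4-/- and 192 ± 20.7 in Irf4+/+ arrays (SD, n = 5 each; log2 fold change -0.21, SE 0.116, adjusted p = 0.152). Asah1, acid ceramidase, averaged 1495 ± 96.8 in Irf4-/- and 1098 ± 72.4 in Irf4+/+ arrays (SD, n = 5 each) and rose 1.36-fold (log2 fold change 0.44, SE 0.0628, adjusted p = 1.98e-05). Lipa, the acid lipase of cholesteryl esters, was not called, with 337 ± 39.5 in Irf4-/- and 301.5 ± 12.1 in Irf4+/+ arrays (SD, n = 5 each; log2 fold change 0.15, SE 0.0851, adjusted p = 0.165), and was called higher without Irf4-/- replicate 5 (0.21, adjusted p = 0.0454). The test was also missed by Ppt1, the thioesterase that removes palmitate from proteins, with 398 ± 12.2 in Irf4-/- and 411 ± 35.8 in Irf4+/+ arrays (SD, n = 5 each; log2 fold change -0.04, SE 0.0738, adjusted p = 0.689). A dimmer Ppt1 probe set was called lower, at -0.36 (adjusted p = 0.0196 over all probe sets).

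Of the 4 membrane proteins measured, 2 rose, 1 fell and 1 was not called, and the changes were small. The share called was 75.0%, against 47.8% of all genes. Lamp2, which takes part in autophagy and in import of proteins into the lysosome, averaged 3050.2 ± 174 in Irf4-/- and 2473 ± 259.7 in Irf4+/+ arrays (SD, n = 5 each). It was 1.24-fold higher (log2 fold change 0.31, SE 0.0706, adjusted p = 0.00177). Without shared probe sets its value came from another probe set and was not called (0.11, adjusted p = 0.216). A dimmer unshared Lamp2 probe set was called higher, at 0.40 (adjusted p = 3.26e-05 over all probe sets). Lamp1, the abundant glycoprotein that lines the membrane, averaged 4745 ± 222 in Irf4-/- and 4108 ± 237 in Irf4+/+ arrays (SD, n = 5 each) and was 1.16-fold higher (log2 fold change 0.21, SE 0.0529, adjusted p = 0.00374), though not with arrays centred on their medians (adjusted p = 0.123). Scarb2, also called LIMP-2, which carries glucocerebrosidase to the lysosome, read 243, 247, 252, 283 and 239 in Irf4-/-, against 338, 371, 334, 326 and 359 in Irf4+/+ arrays. It fell 1.36-fold with no overlap (log2 fold change -0.44, SE 0.0759, adjusted p = 0.00014). Its second probe set, of similar brightness, was not called (-0.13, adjusted p = 0.444 over all probe sets). Laptm5, a lysosomal membrane protein of blood cells that lowers antigen receptor levels, averaged 9508 ± 558 in Irf4-/- and 9533 ± 336 in Irf4+/+ arrays (SD, n = 5 each) and was not called (log2 fold change -0.01, SE 0.0506, adjusted p = 0.947).

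In the proton pump 6 of 8 genes rose, 1 fell and 1 was not called, with a median of 0.30. These are 75.0% higher and 12.5% lower, against 23.6% and 24.2% of all genes. Atp6v0a1, a large subunit of the membrane sector, had the largest change of the 8, with 652, 625, 654, 680.0 and 530.3 signal units in the Irf4-/- arrays, against 226, 325.5, 348, 328 and 382 in the Irf4+/+ arrays. The lowest Irf4-/- array was above the highest Irf4+/+ array, and the rise was 1.95-fold (log2 fold change 0.96, SE 0.116, adjusted p = 3.18e-06). The other membrane-sector subunit, Atp6v0d1, averaged 1349 ± 60.2 in Irf4-/- and 1061 ± 82.7 in Irf4+/+ arrays (SD, n = 5 each) and rose 1.27-fold (log2 fold change 0.35, SE 0.063, adjusted p = 0.000238).

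The cytosolic sector was mixed. Atp6v1d, part of its central stalk, averaged 1598 ± 72.0 in Irf4-/- and 1210.1 ± 99.4 in Irf4+/+ arrays (SD, n = 5 each) and rose 1.32-fold (log2 fold change 0.40, SE 0.0624, adjusted p = 5.08e-05). Atp6v1b2, a subunit of the ATP-splitting ring, averaged 1346 ± 52.5 in Irf4-/- and 1069.8 ± 106 in Irf4+/+ arrays (SD, n = 5 each) and rose 1.26-fold (log2 fold change 0.33, SE 0.0672, adjusted p = 0.000585), but the mean of its 4 probe sets, 1 of them dim, was not called (0.0004, adjusted p = 0.998). Atp6v1c1, which links the sectors, averaged 2459 ± 89.8 in Irf4-/- and 2240.3 ± 72.7 in Irf4+/+ arrays (SD, n = 5 each) and was 1.10-fold higher (log2 fold change 0.13, SE 0.0483, adjusted p = 0.031). Its call was lost under 9 of 23 alternatives, with the replicate number as a block (adjusted p = 0.0524) and without Irf4-/- replicate 2 or 3 or Irf4+/+ replicate 2 or 5 among them (adjusted p 0.0553 to 0.0947 for these 4).

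Atp6v1h, a regulatory subunit needed for the sector to work, was the only pump gene of the 8 called lower on its brightest probe set, with 785, 806, 818, 909 and 866 in Irf4-/-, against 978, 1182.5, 1043.5, 1081 and 982 in Irf4+/+ arrays. It fell 1.26-fold without overlap (log2 fold change -0.33, SE 0.0663, adjusted p = 0.000609), and with the mean of its probe sets it was not called (-0.24, adjusted p = 0.146). Atp6v1a, the catalytic subunit of the same ring as Atp6v1b2, read 996, 1075, 1057, 1058 and 1148 in Irf4-/-, against 1283, 1202, 1004, 1297 and 1125 in Irf4+/+ arrays. The groups overlapped and it was not called (log2 fold change -0.14, SE 0.0716, adjusted p = 0.117). Its second probe set was called lower, at 821.8 ± 40.7 in Irf4-/- and 1123 ± 84.9 in Irf4+/+ arrays (SD, n = 5 each; log2 fold change -0.45, adjusted p = 3.27e-05 over all probe sets), and the brighter one was called lower without Irf4+/+ replicate 3 (adjusted p = 0.0184). Atp6ap1, an accessory subunit, averaged 1298 ± 95.4 in Irf4-/- and 1080.0 ± 101 in Irf4+/+ arrays (SD, n = 5 each) and was 1.20-fold higher (log2 fold change 0.26, SE 0.072, adjusted p = 0.00593), and with arrays centred on their medians it was not called (adjusted p = 0.0549).

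Of 19 further subunits and associated genes listed, 16 had a probe set and 12 were bright enough to test; 4 were called higher, 1 lower and 7 were not called, so that 41.7% were called, against 47.8% of all genes. Atp6v1g1 rose 1.32-fold (adjusted p = 0.000149) and Atp6v1e1 1.18-fold (adjusted p = 0.00577), both peripheral stalk subunits. Rnasek rose 2.23-fold (adjusted p = 0.00257), and Atp6v0d2, which is dim in Irf4+/+ arrays and best known from osteoclasts and macrophages, was higher at 45.8 ± 2.99 in Irf4-/- and 14.2 ± 10.8 in Irf4+/+ arrays (SD, n = 5 each; adjusted p = 0.00253). Atp6ap2, the accessory subunit also known as the prorenin receptor, fell 1.30-fold (adjusted p = 0.000315), so the accessory subunits Atp6ap1 and Atp6ap2 changed in opposite directions. Log2 fold changes of those not called were 0.28 for Atp6v0b, 0.19 for Atp6v1f, 0.15 for Tcirg1, 0.14 for Atp6v0a2, 0.04 for Atp6v0e, 0.15 for Atp6v1g2 and -0.48 for Atp6v1e2.

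Probe sets of a gene mostly gave the same direction. The 42 genes had 96 probe sets, and 25 genes had at least 1 further probe set bright enough to test, 44 in all. In 19 of these 25 genes every further probe set had the sign of the brightest. In Ctsa, Lipa, Laptm5, Atp6v1b2 and Atp6v1h the probe sets of opposite sign were not called, and in Man2b1 the opposite was called.

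**Figure D4:**
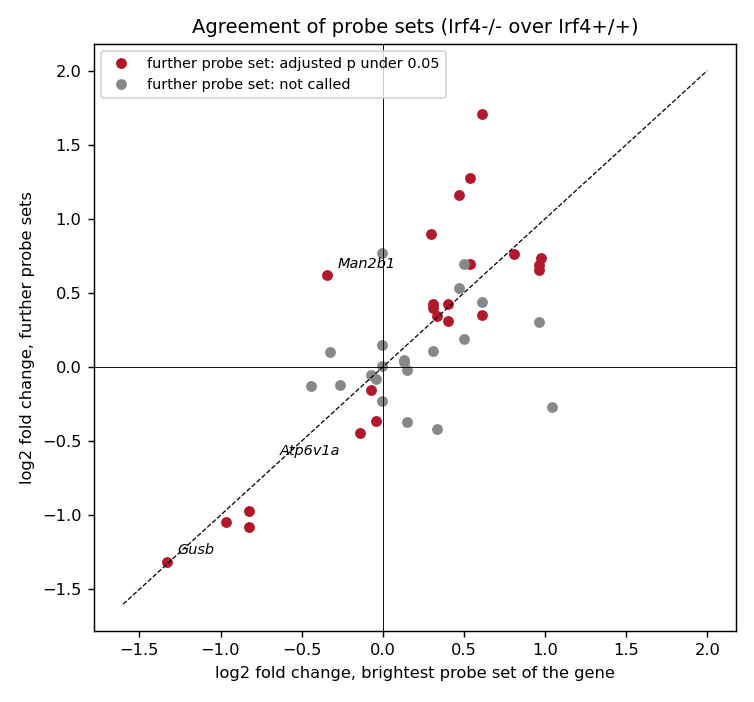
Each point is a further probe set of a gene, with the log2 fold change of the gene's brightest probe set on the horizontal axis and its own on the vertical axis; red points were called over all probe sets, and the dashed line marks equality. Man2b1 is the red point at the upper left, at -0.34 and 0.62, while Gusb lies near the line at -1.33 and -1.31.

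Other genes of the organelle were called higher in more cases than lower. Of 103 such genes 92 had a probe set and 86 passed the filter on dim signals. Of the 86, 39 were called higher (45.3%), 9 lower (10.5%) and 38 were not called, with a median log2 fold change of 0.25. The share called in either direction was 55.8%, near the 47.8% of all genes, which gave 23.6% higher and 24.2% lower. Ctsw, Ctsk, Acp5 and Atp6v0d2 had Irf4+/+ means under 26.1 and passed through their Irf4-/- signal, so their means had to differ. Among the hydrolases, Plbd1, a phospholipase B-like protein, rose 1.76-fold, Ctso (cathepsin O) 1.93-fold and Prcp, a carboxypeptidase, 1.95-fold (adjusted p at most 5.43e-08). Ctsw, the cathepsin of natural killer and cytotoxic T cells, averaged 132 ± 34.8 in Irf4-/- and 17.4 ± 12.3 in Irf4+/+ arrays (SD, n = 5 each; adjusted p = 2.14e-06). The part of these cells in the Ctsw result was not tested.

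Among membrane and sorting genes, Cd68, a glycoprotein of macrophage lysosomes that other cells also carry, rose 2.60-fold (adjusted p = 4.07e-09). The lysosomal transporters Slc29a3 and Slc15a3 rose 1.72-fold and 1.48-fold, and Vps33a, part of the complex that tethers vesicles to lysosomes, 1.56-fold (adjusted p at most 3.57e-06).

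**Figure D5:**
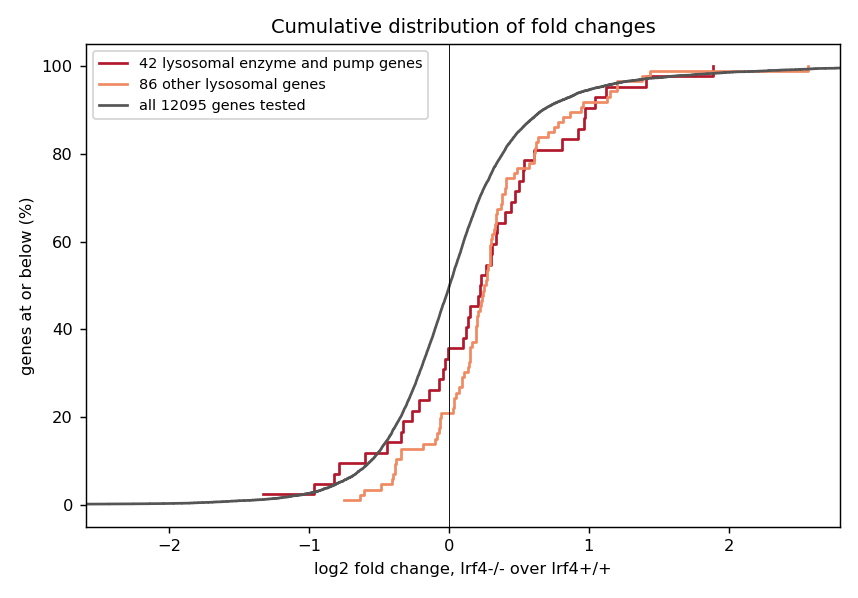
Curves give the percentage of genes at or below each log2 fold change, Irf4-/- over Irf4+/+, for the 42 lysosomal enzyme and pump genes, 86 other lysosomal genes and all 12095 genes tested. The median is 0.23 for the 42 genes, 0.25 for the other lysosomal genes and 0.0037 for all genes.

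MHC class II genes, whose products are loaded in the same compartment, were higher on balance: 9 of 12 tested were called higher (75.0%), none lower and 3 were not called, with a median of 0.50. Of all genes, 23.6% were called higher and 24.2% lower. H2-Ob and H2-Oa, which restrain peptide loading, rose 3.34-fold and 2.86-fold, the master regulator Ciita 2.58-fold and its partner Rfx5 1.85-fold (adjusted p at most 1.76e-09).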

How the data were processed

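RNA of 10 samples, 5 per genotype, was measured on 1-colour Affymetrix arrays from 6 ug of total RNA each. The authors deposited an intensity (MAS5 signal, linear) for each probe set on each array, per the submitters' processing notes (version and target not given in the sources used here). Each array had a mean of 250 once the top and bottom 2% were trimmed, so signals were taken as scaled by the authors, and changes of total RNA per cell cannot be seen. Precision is limited by the number of arrays.

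Of 45101 probe sets, 64 were controls, 34945 had 1 symbol, 932 had several and 9160 are unnamed here. Symbols were updated by gene ID through a RefSeq table of GRCm38.p6, which held 34741 of them. The brightest probe set per gene was used, and 6098 of 18193 genes were dim (mean under 26.1). A linear model with genotype as its single term was fitted to log2(signal + 7.9) in limma 3.58.1 (eBayes with a trend) under R 4.3.3, with two-sided p-values adjusted by Benjamini-Hochberg over all genes. The procedure was tested on simulated data. All 42 genes are named, and of each other list up to 4 called genes with the smallest p, besides Irf4, the MiT factors and every other pump gene tested. Further cell markers and genes that passed the filter through 1 genotype were named after their values were known. The members and lists were chosen with earlier results of these data known. Same-numbered arrays of the genotypes did not deviate together (r -0.0448 to 0.0547), so the numbers were not used as pairs. Alternatives were other pseudocounts, filters, scalings, variance models, probe set choices, the replicate number as a block and each array left out.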

Additional observations from a re-analysis of the deposited data

Results flagged for a closer look

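In 5 of 84 sets of 5 arrays (42 genes in 2 genotypes), 1 array lay so far from the other 4 that the gap was over 0.71 of the whole range on the log2 scale; chance alone flags about 5% of such sets, or 1 in 20. Tfeb read 628.6 in Irf4-/- replicate 4, against 421.4 to 470.3 in the other Irf4-/- arrays, and its log2 fold change was 1.28 to 1.49 over the arrays left out. Ctsh read 4013 in Irf4-/- replicate 4, against 4602 to 4860.3 in the others. Ctss read 4535 in Irf4+/+ replicate 1, against 3898 to 3989 in the others. Neu1 read 252.3 in Irf4+/+ replicate 2, against 287 to 296.5 in the others. Ppt1 read 348 in Irf4+/+ replicate 3, against 419.3 to 432.5 in the others. Leaving out the array in question ended no call among Tfeb, Ctsh, Ctss and Neu1, and Ppt1 was not called with or without it.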

How the results depend on the processing

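Across 23 alternatives the number of the 42 genes called higher was 17 to 24 (22 to 25 with an array left out) and the number called lower 5 to 9 (8 to 9 with an array left out), against 24 and 8. The 17 came without shared probe sets, where 10 of the 42 had no value. The 5 came from the mean of a gene's probe sets, the only alternative that moved a count of the 42, of the other lysosomal genes or of all genes by over 1.5 times; dim probe sets enter that mean. Of the 32 called genes, 20 kept their call and direction under every alternative that gave a value, 11 lost the call under at least 1, and Man2b1 reversed, to 0.14 with the mean of probe sets and to 0.62 both without shared probe sets and with the probe set of highest interquartile range. The other reversals were of genes that were not called: Lipa at -0.0789 with the mean of probe sets and -0.37 under the other 2 probe set choices, Ppt1 at 0.0931 with the mean of probe sets, and Laptm5 at 0.0019 with array weights, 0.14 with the mean of probe sets and 0.77 with the highest interquartile range. With an array left out Ctsl ranged from -0.0857 to 0.0268 and Laptm5 from -0.0266 to 0.0233. Calls were also lost by Gla, Neu1, Atp6v1b2 and Atp6v1h with the mean of probe sets, and by Lamp2 and Mcoln1 without shared ones. With the replicate number as a replicate block, 23 of the 42 were called higher and 8 lower, 42 and 7 of the other lysosomal genes, and 5706 of all genes; no array deviated most like its own number in the other genotype. Scaling moved the median of all genes to -0.03 (quantile) and -0.06 (median centring), from 0.0037, and turned no member's direction.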

Other observations

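Of 22 genes tested from a list of MiT family and related transcription factors and of nutrient sensing at the lysosome, 5 were called higher, 4 lower and 13 were not called, where all genes gave 23.6% higher and 24.2% lower. Lamtor2 and Lamtor1, of the Ragulator scaffold, rose 1.52-fold and 1.43-fold, while Rheb, the activator of mTOR, fell 1.28-fold (adjusted p at most 0.000283), and Fnip2, a partner of folliculin, read 19.6 ± 13.7 in Irf4-/- and 81.9 ± 21.1 in Irf4+/+ arrays (SD, n = 5 each; adjusted p = 0.000229). Fnip2 passed the filter on dim signals only through Irf4+/+ arrays, and Rragd, among the 5 called higher, only through Irf4-/- arrays, so the means of both had to differ. Ppargc1a also passed only through Irf4-/- arrays and was not called (mean 33.7 in Irf4-/- and 26.0 in Irf4+/+ arrays, adjusted p = 0.518). Its Irf4+/+ mean was just under the filter, so it is no check on genes further under it. Of 31 autophagy genes, 7 were called higher (22.6%), 4 lower (12.9%) and 20 were not called. Together 35.5% were called, against 47.8% of all genes. Gabarap, which coats autophagosomes, rose 1.93-fold, Uvrag 1.31-fold and Atg10 1.70-fold, and Wipi2 fell 1.58-fold (adjusted p at most 7.56e-05).

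Among 6 tested inhibitors of proteases and the invariant chain, 4 were called higher (66.7%) and none lower, against 23.6% higher and 24.2% lower of all genes. The serpins Serpinb6b and Serpinb6a rose 3.62-fold and 5.24-fold (adjusted p at most 6.92e-11). Serpinb1a averaged 221 ± 22.8 in Irf4-/- and 3.24 ± 0.777 in Irf4+/+ arrays (SD, n = 5 each, adjusted p = 1.23e-11). It passed the filter on dim signals only through Irf4-/- arrays, so its means had to differ. The Serpinb cluster neighbours Irf4 on the genome, and the part of this position in the serpin results was not tested. Cst7, a cystatin of natural killer cells and macrophages, rose 1.19-fold (adjusted p = 0.0332). The part of these cells in the Cst7 result was not tested.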
